A study of Mus musculus with 12 samples.

Results

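The genes described here are 10 genes of the NRF2 pathway and antioxidant defense, namely Nfe2l2, Keap1, Nqo1, Hmox1, Gclc, Gclm, Txnrd1, Srxn1, Prdx6 and Sod2. They were chosen by name, and all 10 were found among the 15344 genes of the deposited tables. The data are RNA-Seq of quadriceps from 12 mice of 6 months, in 3 groups of 4. WT were C57BL/6 mice, for which the study's methods name no treatment. KO were male mice of the same background that lack acid alpha-glucosidase (GAA), the model of Pompe disease, and received PBS. AAV were male KO mice given AAV2/8-LSPhGAApA by tail vein at 2e12 vg/kg, 4 months before harvest. The knockout is thus shared by the KO and AAV groups, and the vector carries human GAA under a liver-specific promoter, so that the muscle itself is not the intended site of its transcription.

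NRF2, encoded by Nfe2l2, is a transcription factor that KEAP1 holds in the cytoplasm and hands to a cullin 3 ubiquitin ligase for degradation. Oxidants and electrophiles modify cysteines of KEAP1, and NRF2 then accumulates, enters the nucleus and binds antioxidant response elements together with a small MAF protein. Its targets make glutathione, keep thioredoxin and peroxiredoxins reduced and detoxify quinones and heme, and skeletal muscle relies on them because contraction and mitochondrial respiration produce oxidants. As KEAP1 controls NRF2 through its degradation, the level of Nfe2l2 RNA does not measure the activity of the protein.

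Between 22122233 and 47379737 reads per library were counted, with between 150 and 10720 reads for each of the 10 genes in a library. The targeted gene, Gaa, went against the labels, so that libraries are named by label throughout and every direction rests on these labels. Whether samples were exchanged or a disrupted transcript was counted was not tested, and the GAA activity and glycogen content that the study also assayed in these muscles were not analysed here. In WT libraries 1 to 4 its normalized counts were 343, 14640.2, 324 and 460.3. In KO libraries 1 to 4 they were 12151, 13074, 11936 and 12895. In AAV libraries 1 to 4 they were 947, 587, 499.6 and 9854. The libraries labelled WT 2 and AAV 4 therefore stood apart from the others of their groups, and the genes called with and without them are given for each comparison. The 9 markers of skeletal muscle, from Acta1 to Des, summed to between 3716950.0 and 6051480.0 normalized counts over the 12 libraries, so that the labelled tissue is seen in each. The 6 markers of slow fibers, by contrast, summed to between 1346 and 4644 in the libraries labelled WT, to between 128 and 200.1 in those labelled KO and to between 1678 and 21015 in those labelled AAV.

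The genes lie at the following places on GRCm38 in GENCODE M21, and all are protein coding. Nfe2l2 (ENSMUSG00000015839) is at chr2:75675513-75704641 on the - strand, and Keap1 (ENSMUSG00000003308) at chr9:21229730-21239361 on the - strand. Gclc (ENSMUSG00000032350) is at chr9:77754535-77794485 on the + strand and Gclm (ENSMUSG00000028124) at chr3:122245557-122270732 on the + strand. Srxn1 (ENSMUSG00000032802) is at chr2:152105516-152111376 on the + strand, Txnrd1 (ENSMUSG00000020250) at chr10:82833951-82897712 on the + strand and Prdx6 (ENSMUSG00000026701) at chr1:161240112-161251219 on the - strand. Nqo1 (ENSMUSG00000003849) is at chr8:107388225-107403206 on the - strand, Hmox1 (ENSMUSG00000005413) at chr8:75093621-75100589 on the + strand and Sod2 (ENSMUSG00000006818) at chr17:13006846-13040063 on the + strand. Keap1, Gclm and Txnrd1 overlap noncoding genes on the other strand, whose reads cannot be told apart unless strand was used in counting, which the sources used here do not say. Nfe2l2, Gclm and Txnrd1 also overlap the genes Gm24996, Gm6061 and Eid3 on their own strand.

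The promoters of the members that differed between groups are shown first, since NRF2 acts through a short element in such regions. RefSeq promoters on GRCm38.p6 were matched for 7 of the 10 genes, with several start sites for Txnrd1, and were searched from 250 bases before to 50 bases after the start. The core searched for the antioxidant response element was TGACNNNGC on both strands, which 12.4% of all 32851 promoters of this length hold. The AP-1 site TGANTCA, also on both strands and able to overlap the longer element, is held by 7.81% of them. The 250 bases before the start are printed below from 5′ to 3′ on the strand of the gene, with matches in capitals.
Srxn1, chr2:152105274-152105523, + strand: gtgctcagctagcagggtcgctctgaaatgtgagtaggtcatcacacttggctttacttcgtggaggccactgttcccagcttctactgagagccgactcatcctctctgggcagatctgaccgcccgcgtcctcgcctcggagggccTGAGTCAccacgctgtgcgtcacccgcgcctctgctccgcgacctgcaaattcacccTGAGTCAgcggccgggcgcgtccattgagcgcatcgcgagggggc
Gclm, chr3:122245307-122245556, + strand: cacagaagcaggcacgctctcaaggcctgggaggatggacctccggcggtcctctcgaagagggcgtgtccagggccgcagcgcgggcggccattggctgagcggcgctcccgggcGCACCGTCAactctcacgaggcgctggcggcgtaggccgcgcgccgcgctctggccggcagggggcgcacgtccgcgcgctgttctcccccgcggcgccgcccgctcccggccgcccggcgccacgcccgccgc
Nfe2l2, chr2:75704664-75704913, - strand: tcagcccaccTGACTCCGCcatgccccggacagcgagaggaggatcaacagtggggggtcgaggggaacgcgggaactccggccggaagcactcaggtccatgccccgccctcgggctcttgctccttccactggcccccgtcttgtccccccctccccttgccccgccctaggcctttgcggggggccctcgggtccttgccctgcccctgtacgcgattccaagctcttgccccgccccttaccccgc
The capitals of Srxn1 are 2 matches to the AP-1 letters, which begin 102 and 45 bases before the start, and this promoter also has the element core 28 bases after it, on the opposite strand. Those of Gclm are the element core on the opposite strand, beginning 134 bases before the start. In Nfe2l2 the element core begins 240 bases before the start on the gene's own strand. The RefSeq start used for Nfe2l2 lies upstream of the gene's end in GENCODE M21. Of the other members with an entry, Txnrd1 has the core at 1 of its start sites, 92 bases before it, whereas Nqo1, Keap1 and Sod2 have neither set of letters in these windows. Hmox1, Gclc and Prdx6 were not matched.

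Among the 10 genes, Srxn1 had the highest level per kb of exon in the libraries labelled WT, with 1471 ± 332 normalized counts per kb (SD, n = 4). Keap1 (739.9 ± 54.9), Sod2 (626 ± 164), Nqo1 (603 ± 189), Prdx6 (569.7 ± 59.95) and Txnrd1 (464 ± 143) followed, and neighbors in this order did not differ beyond their spread. Nfe2l2 had 266 ± 31.8 and Hmox1 151 ± 29.2 counts per kb. The 2 subunits of the glutathione-making ligase were lowest, with 77.5 ± 10.02 for Gclm and 72.3 ± 2.29 for Gclc, which again overlapped. In the libraries labelled KO, Srxn1 had 399 ± 108 counts per kb, below the means of Keap1 (746 ± 59.4), Prdx6 (547 ± 67.2), Sod2 (544 ± 17.9) and Nqo1 (435 ± 76.8). In the libraries labelled AAV it again had the highest mean, 1219.7 ± 427 counts per kb. Exon length here covers all annotated exons of a gene, so that genes with long annotated ends, such as Sod2, have lower values per kb.

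**Figure D1:**
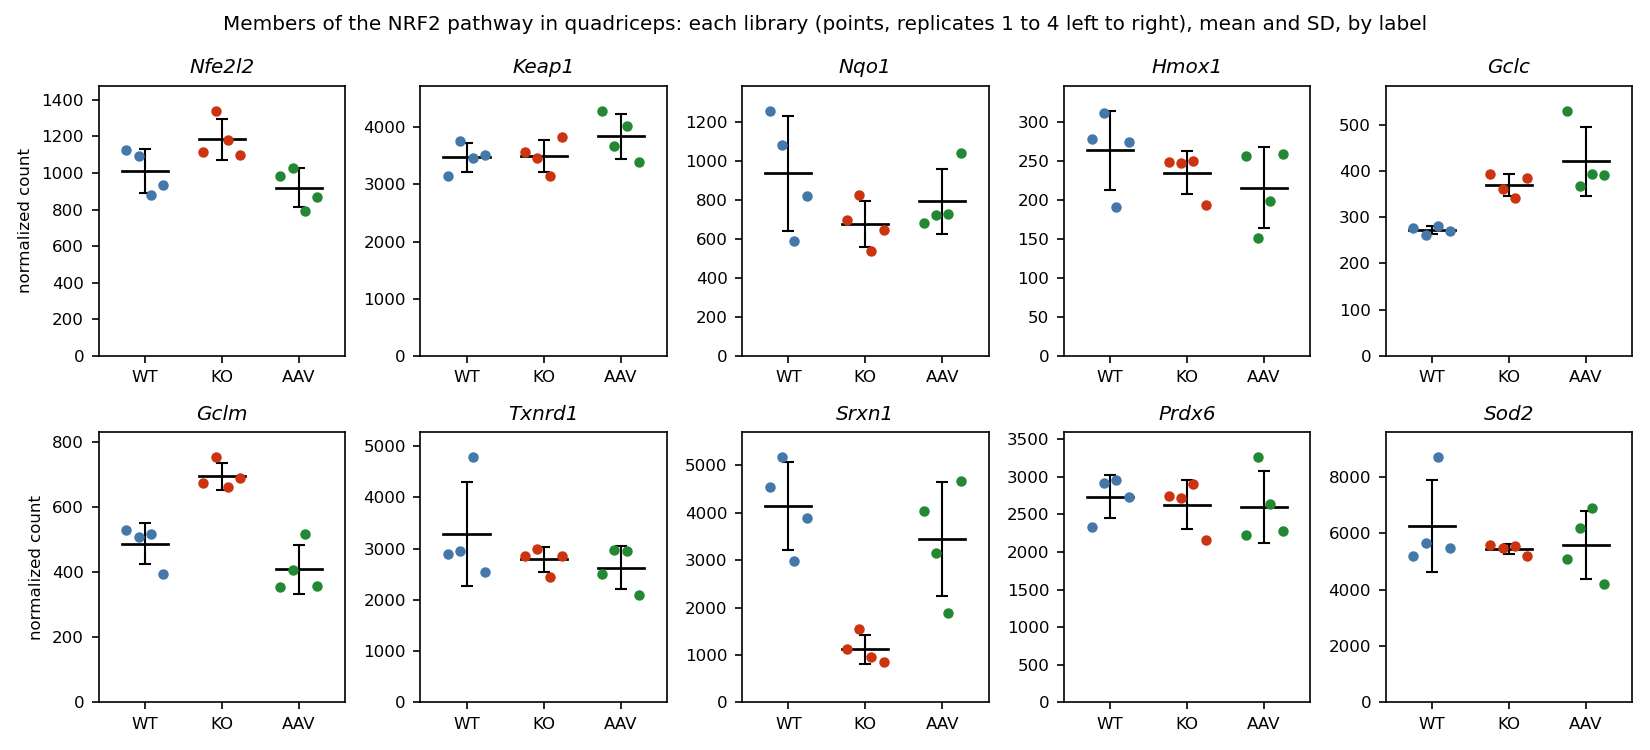
Normalized count of each member (y axis, from 0) in the 4 libraries of each label (x axis), with replicates 1 to 4 from left to right, the mean as a bar and the SD as an error bar. Srxn1 lay between 863 and 1548 in the libraries labelled KO and at 1888 or above in all others, and Gclm lay at 662 or above in the libraries labelled KO and at 529 or below in all others.

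The comparison of the libraries labelled KO with those labelled WT asks how loss of GAA alters the pathway in muscle. Of the 10 genes, 3 differed, Srxn1 being lower and the glutathione genes Gclc and Gclm higher in the libraries labelled KO, while Nfe2l2, Keap1 and the other 5 genes did not pass the test. Calls here mean an adjusted p below 0.05 from limma, run on log2(normalized count + 1) and adjusted by Benjamini-Hochberg over all 14859 genes tested. Of all these genes 27.6% were called, 12.3% being higher and 15.3% lower in the libraries labelled KO, so that the share of members, 3 of 10 (2 higher and 1 lower), is near the background. When a fold of 1 or more on the log2 scale in either direction was also asked for, 1 of 10 members was called, against 13.9% of all genes. The median log2 fold change was -0.11 over the 10 members and 0.02 over all genes tested.

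Srxn1 encodes sulfiredoxin, which restores peroxiredoxins whose cysteine has been overoxidized. Its normalized counts were 4542, 5178, 2989 and 3882 in WT libraries 1 to 4 and 1135, 1548, 949.5 and 863 in KO libraries 1 to 4. Every library labelled KO was lower than every library labelled WT. The means were 4148 ± 936 and 1124 ± 305 (SD, n = 4), and limma gave a log2 difference of -1.89 (SE, the standard error, 0.22, limma adjusted p = 0.000703). In bulk tissue, fewer cells of a type and less RNA per cell cannot be told apart, and the part of the slow fiber markers, which also fell in the libraries labelled KO (6 of 6, median log2 fold change -3.51), was not tested.

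Gclc and Gclm encode the catalytic and the modifier subunit of glutamate-cysteine ligase, the rate-limiting enzyme of glutathione synthesis. Gclc had normalized counts of 277, 260.4, 280.0 and 271 in the libraries labelled WT and of 394, 360.0, 340.4 and 385 in those labelled KO. Its groups did not overlap, and it rose from a mean of 272 ± 8.61 to 369.8 ± 24.3 (SD, n = 4), a log2 fold change of 0.44 (SE 0.12, limma adjusted p = 0.0242). For Gclm the counts were 529, 509, 519 and 394 in the libraries labelled WT and 672, 753, 662 and 689.7 in those labelled KO. These groups did not overlap either, with means of 488 ± 63.1 and 694 ± 40.9 (SD, n = 4) and a log2 fold change of 0.52 (SE 0.13, limma adjusted p = 0.0194). For Srxn1, Gclc and Gclm alike, permuting the labels of the counts (exact, two-sided) gave p = 0.0286, the smallest that 4 libraries against 4 allow.

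The calls of Gclc and Gclm were lost under some alternatives, whereas Srxn1 was called in each of 19. Gclc lost its call in 6 of them, 5 of which left out 1 library, with log2 fold changes between 0.41 and 0.48 when a library was left out and adjusted p from 0.00216 to 0.0756 over all 19. Gclm kept its direction but was not called by limma without KO 2 (adjusted p = 0.0643) or after corrections for exon length (0.39, adjusted p = 0.0504) and GC content (0.30, adjusted p = 0.158), with adjusted p from 0.00258 to 0.158 over all 19. Without WT 2, whose Gaa stood apart, Srxn1 (-1.77, adjusted p = 0.00327), Gclm (0.54, adjusted p = 0.0314) and Gclc (0.42, adjusted p = 0.0449) were all called by limma, and the other 7 members were not. Between 1 of 10 members (without KO 2, where 16.4% of all genes were called) and 4 of 10 (without WT 3, where 48.4% were) were called when a library was left out.

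The regulators themselves showed no difference that passed the test. Nfe2l2 had normalized counts of 1127, 1095, 881 and 931 in the libraries labelled WT and of 1115, 1341, 1178 and 1099.9 in those labelled KO. The ranges overlapped only slightly, and the log2 fold change of 0.23 had a 95% interval from -0.05 to 0.52 (adjusted p = 0.188, limma). Keap1, its inhibitor, had 3139.9, 3767, 3469 and 3514 in the libraries labelled WT and 3564, 3464, 3149 and 3823 in those labelled KO. A log2 fold change of 0.011 resulted and had an interval from -0.24 to 0.26, which holds no difference larger than 0.26 in either direction.

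Among the detoxifying and antioxidant enzymes, Nqo1 came nearest to a call. Nqo1 encodes a quinone reductase, and its counts were 1259, 1081, 588 and 819 in the libraries labelled WT and 696, 825, 538 and 644 in those labelled KO. WT 3 and WT 4 lay within the range of the libraries labelled KO, and WT 1 and WT 2 above it. The log2 fold change was -0.43 (interval -0.95 to 0.09, adjusted p = 0.185, limma), and without WT 3 it was -0.63 (adjusted p = 0.0146, the lowest of 19 alternatives, which reached 0.622). Hmox1, which encodes the inducible heme oxygenase, had 279, 311, 192 and 274 in the libraries labelled WT and 248, 248, 250.2 and 194 in those labelled KO. These ranges overlapped, at a log2 fold change of -0.15 (interval -0.55 to 0.25).

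For Txnrd1, the cytosolic thioredoxin reductase, the counts were 2886, 2952, 4786 and 2537 in the libraries labelled WT and 2851, 3002, 2448 and 2855 in those labelled KO. For Sod2, the manganese superoxide dismutase of the mitochondrial matrix, they were 5194, 5663, 8701 and 5484 in the libraries labelled WT and 5573, 5459, 5549 and 5182 in those labelled KO. WT 3 was the highest library for both genes, and the other 3 libraries labelled WT lay near those labelled KO. The log2 fold change was -0.20 for Txnrd1 (interval -0.61 to 0.22) and -0.17 for Sod2 (interval -0.53 to 0.19). Beside Sod2, 1 of 12 other genes of the mitochondrial matrix and porins was called (8.33%, against 27.6% of all genes), Sdhb, which was lower in the libraries labelled KO. Prdx6 encodes a peroxiredoxin that also has phospholipase activity, and its counts were 2330.1, 2919, 2961 and 2737 in the libraries labelled WT against 2742, 2712, 2902 and 2162 in those labelled KO, a log2 fold change of -0.06 (interval -0.36 to 0.23).

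**Figure D2:**
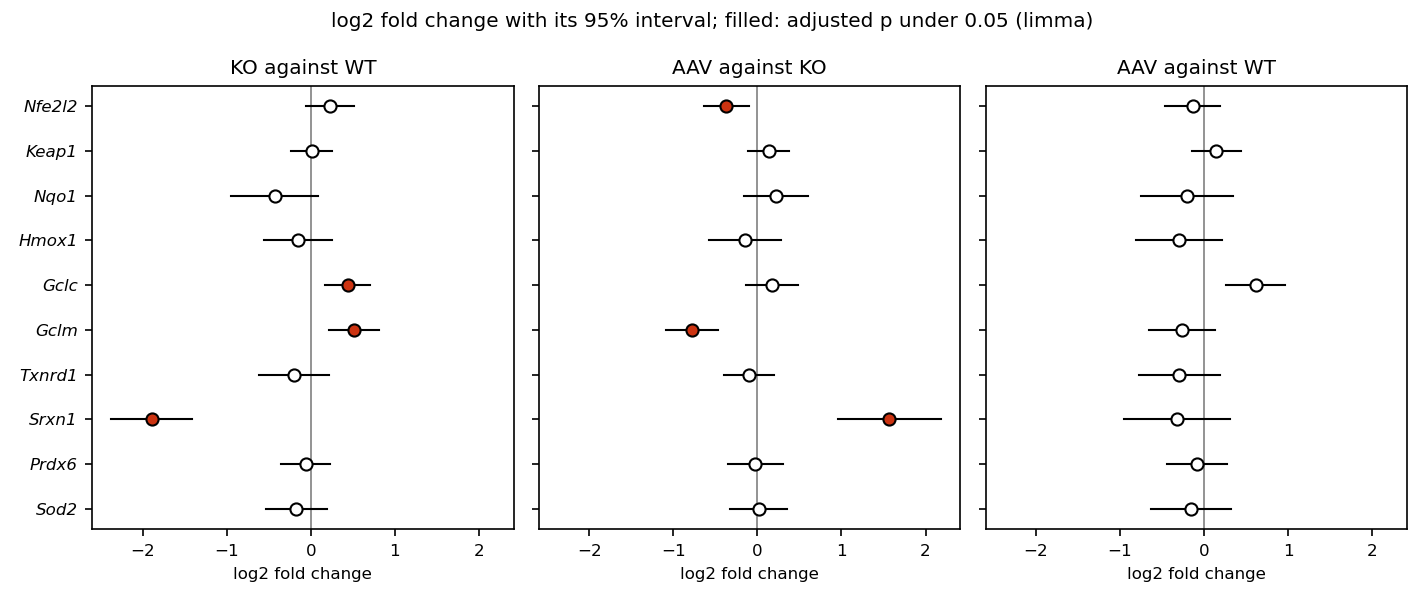
log2 fold change of each member (x axis) with its 95% interval from limma in the 3 comparisons, with filled points for an adjusted p under 0.05. Srxn1 is at -1.89 for KO against WT and at 1.57 for AAV against KO, and no point is filled for AAV against WT.

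The libraries labelled AAV were compared with those labelled KO to ask how the pathway differs after the liver-directed vector. Srxn1 was higher and Gclm and Nfe2l2 were lower in the libraries labelled AAV, whereas Gclc, Keap1 and the other 5 members did not pass the test. Thus 3 of 10 members were called (1 up and 2 down), near the 26.3% of 14894 genes called in all, with 12.8% of all genes tested higher and 13.4% lower in those labelled AAV. With the fold threshold added, 1 of 10 members was called, against 8.98% of all genes. The median log2 fold change was -0.0052 over the members and 0.04 over all genes tested, and 0.16 and 0.21 with libraries scaled by total reads. The libraries labelled KO enter both comparisons, so that opposite signs in them are not independent.

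Srxn1 had normalized counts of 4048, 3159, 1888 and 4663 in AAV libraries 1 to 4, all above the highest library labelled KO (1548). The mean was 3439.6 ± 1204 (SD, n = 4), and the log2 fold change was 1.57 (SE 0.28, limma adjusted p = 0.00616). AAV 3 was the lowest of its group and lay nearest to the libraries labelled KO. The slow fiber markers rose in the same comparison (6 of 6, median log2 fold change 5.49), and their part in the difference was not tested.

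Gclm had counts of 356, 406, 517 and 358 in AAV libraries 1 to 4, all below the lowest library labelled KO (662). Its mean was 409 ± 75.7 (SD, n = 4), and the log2 fold change was -0.78 (SE 0.14, limma adjusted p = 0.00637). Both Srxn1 and Gclm were called in each of 19 alternatives, including that without AAV 4 (1.40 with an adjusted p of 0.00969 and -0.72 with 0.0103, limma). Gclc, the other subunit of the enzyme, had 531, 366, 394 and 392, within or above the range of the libraries labelled KO. The fold change of Gclc was 0.17 on the log2 scale (interval -0.14 to 0.48, adjusted p = 0.366, limma), so that the 2 subunits had opposite signs here.

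Nfe2l2 itself had counts of 984, 1026, 791 and 871 in AAV libraries 1 to 4, each below the lowest library labelled KO (1099.9). The mean of 918 ± 107 (SD, n = 4) gave a log2 fold change of -0.37 (SE 0.12, limma adjusted p = 0.0454). This call was lost in 12 of 19 alternatives, and the direction was kept in all 19, with adjusted p from 0.0165 to 0.332. Without AAV 4 the value was -0.35 (adjusted p = 0.0765), and with libraries scaled by total reads it was -0.20 (adjusted p = 0.332, limma).

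The remaining members overlapped between the libraries labelled AAV and KO. Keap1 had 4293, 3678, 4015 and 3385 in the libraries labelled AAV, a log2 fold change of 0.13 (interval -0.11 to 0.38). Nqo1 had 679, 724, 729 and 1039, with AAV 4 above the other 3 libraries, and a log2 fold change of 0.23 (interval -0.15 to 0.61). For Hmox1 the counts were 256, 151, 198 and 259 and the log2 fold change was -0.15 (interval -0.57 to 0.28). These groups differed by less than their spread.
Txnrd1 had 2500.1, 2977, 2956 and 2089 in the libraries labelled AAV, and its log2 fold change was -0.10 (interval -0.39 to 0.20). Prdx6 had 2227, 3263, 2642 and 2274, with a log2 fold change of -0.02 (interval -0.35 to 0.30). Sod2 had 5086, 6174, 6907 and 4188, a wider range than the 5182 to 5573 of the libraries labelled KO, and a log2 fold change of 0.013 (interval -0.32 to 0.35). With libraries scaled by total reads, Hmox1, Txnrd1 and Prdx6 turned to 0.019, 0.070 and 0.14. Without AAV 4, Txnrd1 was at 0.011 and Prdx6 at 0.035.

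The libraries labelled AAV were also set against those labelled WT, which asks what differs after the vector from muscle with intact GAA. Here 0 of 10 members were called by limma (1 at an unadjusted p under 0.05). On the recovered reads, 0 members were called by edgeR (1.09% of all genes) and 1 by DESeq2 (6.26% of all genes). Of 14939 genes tested 1.29% were called, 0.951% being higher and 0.341% lower in those labelled AAV, and 0.951% were called with the fold threshold. Gclc came nearest, with counts of 531, 366, 394 and 392 in the libraries labelled AAV, all above the highest library labelled WT (280.0). Its log2 fold change was 0.61 (SE 0.16, limma adjusted p = 0.0916), the adjusted p was 0.00968 with DESeq2, and over its 20 alternatives the adjusted p ranged from 0.00968 to 0.243.

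For the other members the data leave room for differences in either direction. Srxn1 had a log2 fold change of -0.32 with an interval from -0.95 to 0.31. For Gclm it was -0.26 (interval -0.65 to 0.13), for Nfe2l2 -0.13 (interval -0.46 to 0.19) and for Keap1 0.14 (interval -0.15 to 0.44). The values of Nqo1 (-0.20), Hmox1 (-0.30), Txnrd1 (-0.29), Prdx6 (-0.08) and Sod2 (-0.16) had intervals on both sides of 0 too. Without WT 2 and AAV 4 together, 0 of 10 members were called, and Gclc was at 0.62 (adjusted p = 0.243, limma).

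A wider set of 89 genes of the pathway was examined in 7 lists. These lists were chosen with earlier results of these data known, so that their shares of called genes are no independent test. Between the libraries labelled KO and WT, 33 of 89 were called (37.1%, against 27.6% of all genes), 7 being higher and 26 lower in the libraries labelled KO, and 15 had the fold threshold as well. Their median log2 fold change was -0.30, against 0.02 over all genes tested. Called genes of all kinds differed in exon length by direction, with a median of 2908.5 bases for lower and 5568.5 bases for higher genes. Within the wider lists the median was 2916 bases for the lower genes, 4048 for the higher genes and 3061.5 for those not called. Of the 33 genes, 19 were called in every alternative. After a correction for exon length, 29 of the 33 were still called, and after one for GC content, 33. Without WT 3, 33 of the 33 were called. Without WT 2, 22 were, and the 11 others were Blvrb, Cul3, Gpx3, Gsk3b, Gsto1, Me1, Mgst3, Pir, Prdx4, Sesn3 and Slc48a1. In that fit Gpx1 was at -1.61, Maff at -1.48, Txn1 at -1.49, Esd at -1.55, Fth1 at -1.15, Prdx2 at -0.91, Abcc4 at 1.20 and Msrb3 at 1.05, all called by limma. Leaving out 1 library moved the number called among the 89 between 20 (without WT 4) and 53 (without WT 3), with 21 without KO 1 and 21 without KO 2. The share of all genes called moved between 15.9% and 48.4%.

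**Figure D3:**
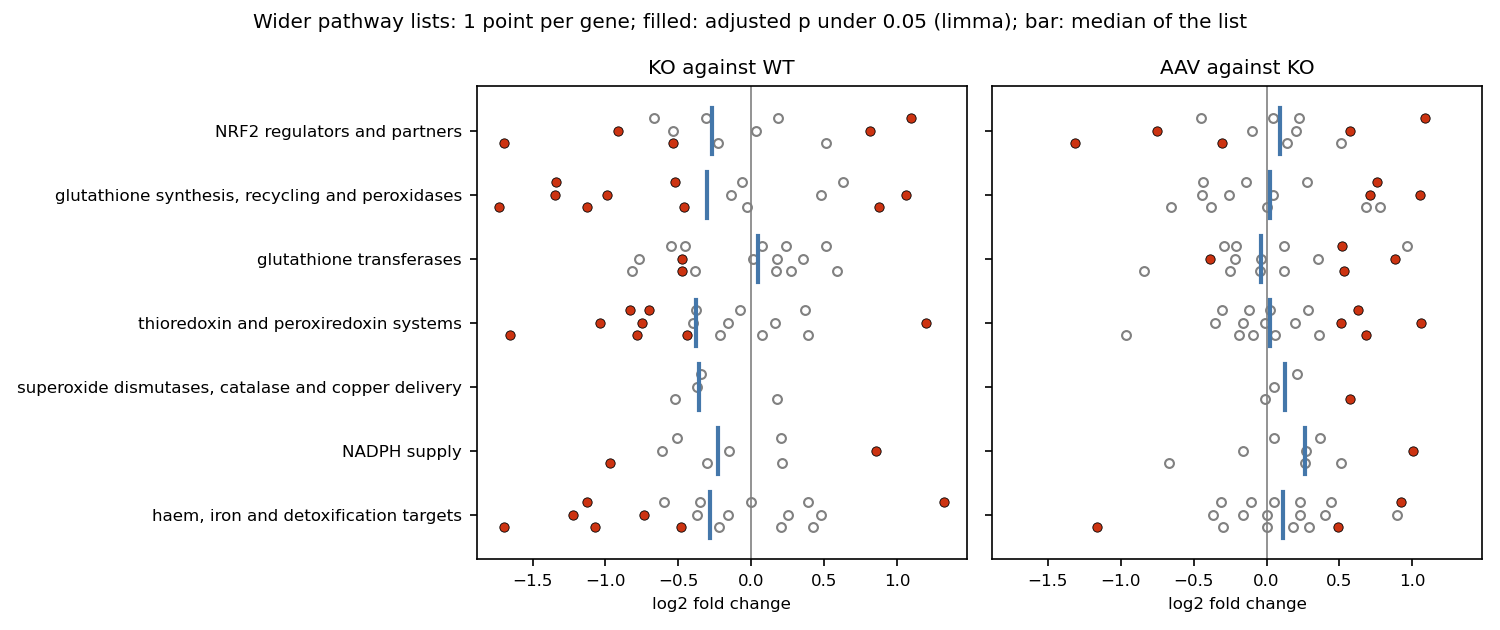
log2 fold change (x axis) of each gene of the 7 wider lists (y axis), with 1 point per gene, filled for an adjusted p under 0.05 by limma, and a bar at the median of the list. Between the libraries labelled KO and WT, 26 filled points lie below 0 and 7 above, and between those labelled AAV and KO 5 lie below and 16 above.

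Of 14 genes of glutathione synthesis, recycling and peroxidases, 9 were called in KO against WT, 7 falling and 2 rising (64.3%, against 27.6% of all genes, with a median log2 fold change of -0.30). Gpx1, the main cytosolic glutathione peroxidase, had normalized counts of 5941, 6558, 3007 and 5695 in WT libraries 1 to 4 and of 1140.1, 1240.0, 1829 and 2121 in KO libraries 1 to 4. The groups did not overlap, and its log2 fold change was -1.73 (SE 0.27, limma adjusted p = 0.00312). Gpx4, which reduces lipid hydroperoxides, fell from a mean of 3126 to 1362, and Gss, which completes glutathione synthesis, from 356 to 172. WT 3 was the lowest library labelled WT for both, at 1783 for Gpx4 and 208 for Gss. Glrx5, a mitochondrial glutaredoxin of iron-sulfur cluster assembly, fell from 2706 ± 1346 to 1005 ± 236 (SD, n = 4). In contrast Gpx3, the secreted peroxidase, rose from 5437 ± 2710.2 to 9291 ± 1160.4 (log2 fold change 0.88, adjusted p = 0.038, limma), with WT 3 (9411) inside the range of the libraries labelled KO. Its call was lost in 9 of 19 alternatives. Of 16 glutathione transferases, 2 were called (12.5%, against 27.6% of all genes), Gsto1 and Mgst3, both at -0.48. Gsto1 lost its call in 7 of 19 alternatives (adjusted p up to 0.158, limma) and Mgst3 in 9, where it came as near to 0 as -0.13.

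In the thioredoxin and peroxiredoxin list 8 of 17 genes were called (47.1%, against 27.6% of all genes), 7 lower and 1 higher. Txn1, the cytosolic thioredoxin that TXNRD1 reduces, had 4143, 5251, 1713 and 4950.5 in the libraries labelled WT and 1259, 1095, 1156 and 1169 in those labelled KO. The log2 fold change was -1.66 (SE 0.31, limma adjusted p = 0.00567), with WT 3 nearest to the libraries labelled KO. Prdx2, a cytosolic peroxiredoxin and a substrate of sulfiredoxin, had 4119.9, 5910.5, 3230.3 and 5461 in the libraries labelled WT and 2257, 2406, 2189.5 and 2049.6 in those labelled KO. The groups did not overlap, at a log2 fold change of -1.03 (SE 0.18, limma adjusted p = 0.00479).
Prdx5 (-0.70, adjusted p = 0.00852) and Prdx4 of the endoplasmic reticulum (-0.78, adjusted p = 0.0316) were lower as well by limma. Prdx5 kept its call in all 19 alternatives, and Prdx4 lost it in 7. Prdx1 (0.08, adjusted p = 0.61) and the mitochondrial Prdx3 (0.16, adjusted p = 0.434) did not pass by limma, and differences between family members were not tested. The higher gene was Msrb3, a methionine sulfoxide reductase, with 3009.6, 2609, 6982 and 2876 in the libraries labelled WT and 8765, 7891, 7443 and 8492 in those labelled KO (log2 fold change 1.20, adjusted p = 0.0124, limma).

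Of the 12 regulators and partners of NRF2, 5 were called by limma (41.7%, against 27.6% of all genes), 4 by edgeR and 7 by DESeq2. Those called by limma were the factors Maff, Mafk and Nfe2l1, which were lower, and Cul3 and Gsk3b, which were higher in the libraries labelled KO. Maff, a small MAF protein with which NRF2 can pair, fell from 267 ± 104 to 78.8 ± 19.8 normalized counts (SD, n = 4), a log2 fold change of -1.69 (SE 0.29, limma adjusted p = 0.00429). Cul3, the cullin that carries KEAP1, had 5634, 3079, 10477 and 3575 in the libraries labelled WT and 10624, 10392, 9889 and 12417 in those labelled KO. Again WT 3 lay among the libraries labelled KO, and the log2 fold change of 1.096 (limma adjusted p = 0.033) lost its call in 8 of 19 alternatives. Bach1, a repressor that competes with NRF2 (0.51, adjusted p = 0.0811), and Sqstm1, the autophagy receptor p62 that binds KEAP1 (-0.53, adjusted p = 0.0955), did not pass by limma.

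In the list of heme, iron and detoxification targets 7 of 18 genes were called (38.9%, against 27.6% of all genes), 6 lower and 1 higher. Fth1, the ferritin heavy chain that stores iron, had 67249, 72767, 55557 and 57715 in the libraries labelled WT and 26837, 23965, 26619 and 31061 in those labelled KO. The groups were far apart, with a log2 fold change of -1.22 (SE 0.14, limma adjusted p = 0.000875). Esd, an esterase that hydrolyzes S-formylglutathione, fell from 3669 ± 1568 to 1016 ± 101 (log2 fold change -1.70, adjusted p = 0.00906, limma). Its count in WT 3 was 1317, the nearest of that group to the libraries labelled KO. The higher gene was Abcc4, an efflux transporter, which rose from 226 ± 99.6 to 537 ± 49.5 (log2 fold change 1.32, adjusted p = 0.00558, limma). For the supply of NADPH, 2 of 8 genes were called (against 27.6% of all genes), with Me1 higher (0.86) and Idh2 lower (-0.97). The call of Me1 was lost in 7 of 19 alternatives, and that of Idh2 in 0.
Of the 4 genes of superoxide dismutases, catalase and copper delivery 0 were called by limma. By limma Sod1 was at -0.34 (adjusted p = 0.156), the extracellular Sod3 at -0.37 (adjusted p = 0.214) and Cat, catalase, at 0.17 (adjusted p = 0.494). At an unadjusted p under 0.05, 1 of these 4 passed, the copper chaperone Ccs. On the recovered reads edgeR called 0 of them and DESeq2 1.

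**Figure D4:**
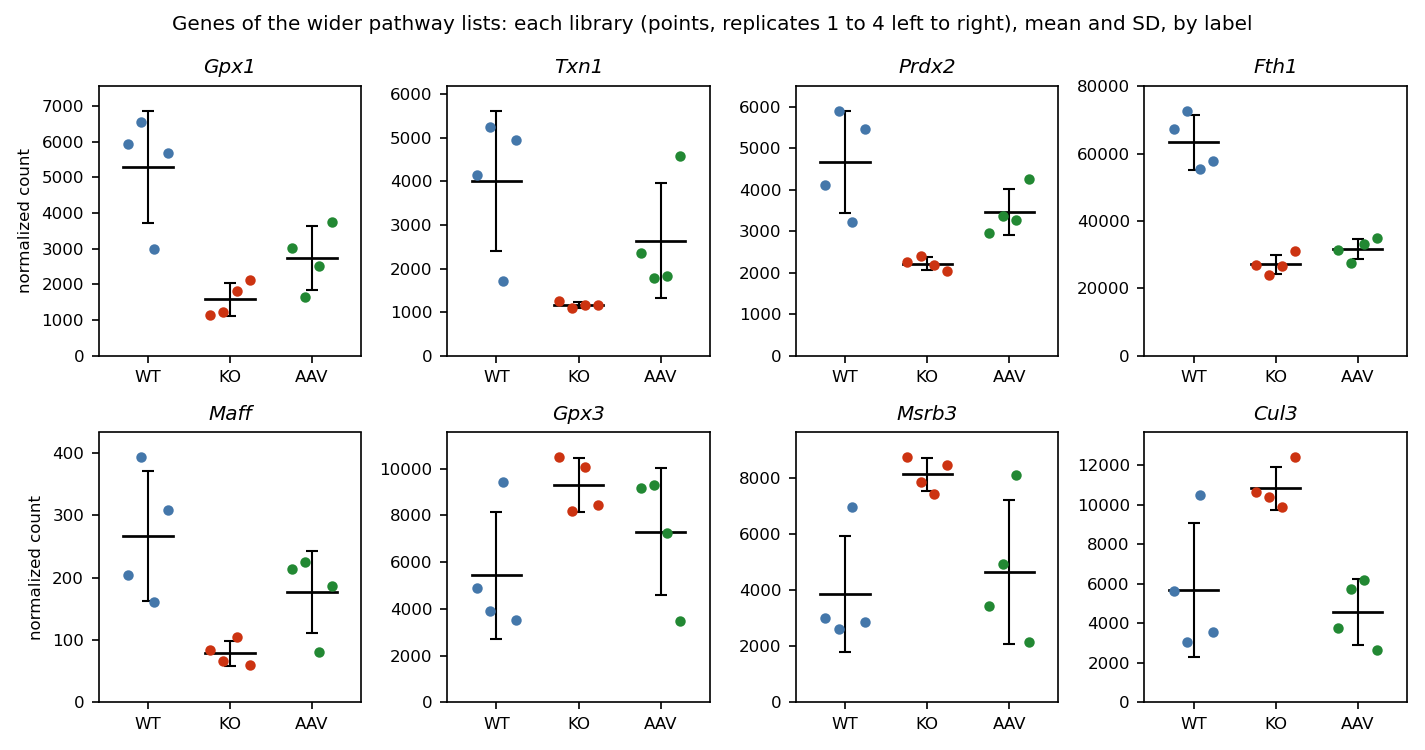
Normalized count (y axis, from 0) of 8 genes of the wider lists in the 4 libraries of each label (x axis), with replicates 1 to 4 from left to right, the mean as a bar and the SD as an error bar. For each of the 8 genes the library labelled WT 3 lies nearer to the libraries labelled KO than the other 3 libraries labelled WT do. Fth1 lies at 34865 or below in all libraries labelled KO and AAV.

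Markers of other cells were measured in the same libraries, where 27.6% of all genes were called in KO against WT and 26.3% in AAV against KO. Of 8 macrophage markers, 6 passed the test in KO against WT, 5 being lower and 1 higher (median log2 fold change -1.49). Their summed level lay between 1641 and 5197 in the libraries labelled WT, between 919.6 and 1648 in those labelled KO and between 994 and 4751 in those labelled AAV. Of 6 endothelial markers 3 were called, all higher in the libraries labelled KO. Their sum lay between 1837 and 5171 in the libraries labelled WT, between 4391 and 5783 in those labelled KO and between 3580.0 and 6132 in those labelled AAV. Of the 9 skeletal muscle markers 4 were called, Myh1, Myh2 and Des lower and Myh4 higher in the libraries labelled KO. The 3 red blood cell markers had a median of -1.20, and 0 were called by limma (1 at an unadjusted p under 0.05), edgeR or DESeq2. Of 6 adipocyte and 5 fibroblast markers limma called 0 for KO against WT (1 of each at an unadjusted p under 0.05), and edgeR and DESeq2 each called 1 of each. In AAV against KO, 2 of 3 red blood cell markers (Hba-a1 and Hba-a2, median of the list 1.99) and 3 of 9 skeletal muscle markers (Myh1, Myh2 and Des) were called higher. The sum of the red blood cell markers lay between 327 and 406 in the libraries labelled WT, between 35.9 and 387 in those labelled KO and between 363 and 1028 in those labelled AAV. Of the 8 macrophage markers limma called 0 there (3 at an unadjusted p under 0.05), edgeR 3 and DESeq2 4. The listed markers Adgre1, Hbb-bs and Hbb-bt are not among the genes of the tables used. No other listed marker was at 0 in all libraries, and the part of these cells in the values of the pathway genes was not tested.

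In AAV against KO, 21 of 88 wider genes were called (23.9%, against 26.3% of all genes), 16 of them up and 5 down, and 6 had the fold threshold too. Their median log2 fold change was 0.05, against 0.04 over all genes tested. Txn1 had 2359.5, 1791, 1821 and 4587 in AAV libraries 1 to 4, a log2 fold change of 1.06 (SE 0.26, limma adjusted p = 0.0182). All 4 were above the libraries labelled KO, and AAV 4 was far above the other 3. Glrx5 had 2129, 1783, 1909.7 and 2379.6 in the libraries labelled AAV against 663, 1121, 1192 and 1042 in those labelled KO (log2 fold change 1.06, SE 0.18, limma adjusted p = 0.00611). Prdx2 (0.63, adjusted p = 0.00906), Prdx5 (0.51, adjusted p = 0.0165) and Gpx4 (0.76, adjusted p = 0.0229) were higher as well by limma. Prdx2 kept its call in all 19 alternatives, whereas Prdx5 lost it in 3 and Gpx4 in 6. Idh2, the mitochondrial isocitrate dehydrogenase that makes NADPH, was higher by 1.01 (limma adjusted p = 0.0305) and Maff by 1.09 (limma adjusted p = 0.0345), and these lost their calls in 7 and 9 of 19 alternatives.

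Among the lower genes, Cul3 had 3753, 5755, 6193 and 2654 in AAV libraries 1 to 4, all below the libraries labelled KO, and a log2 fold change of -1.31 (SE 0.24, limma adjusted p = 0.00716). Abcc4 (-1.17, adjusted p = 0.0156), Gsk3b, a kinase that marks NRF2 for degradation (-0.75, adjusted p = 0.00813), Gstm5 (-0.39, adjusted p = 0.0344) and Btrc (-0.30, adjusted p = 0.0405) were also lower by limma. Cul3, Abcc4 and Gsk3b kept their calls in all 19 alternatives. Gstm5 lost its call in 8, and Btrc in 14, where it came as near to 0 as -0.07. Gpx1 (0.78, adjusted p = 0.0575), Msrb3 (-0.97, adjusted p = 0.0525), Bach1 (-0.45, adjusted p = 0.0514) and Esd (0.90, adjusted p = 0.0517) lay just outside the limma threshold. Of the 21 genes, 8 were called in every alternative, 15 after the correction for exon length and 13 after that for GC content. The median exon length was 2688 bases for the 16 higher genes, 6389 for the 5 lower and 3123 for those not called, against 3383, 5616.5 and 4100 over all genes tested. Without AAV 4, 15 of the 21 genes were called, and the 6 others were Btrc, Gsta4, Gstm5, Gstt3, Maff and Pir. In that fit Txn1 was at 0.76, Glrx5 at 0.98, Idh2 at 1.24, Cul3 at -1.08 and Abcc4 at -0.87, all called by limma. Leaving out KO 1, KO 2, KO 4 or AAV 1 lowered the number called among the wider genes to 12, 11, 11 and 13. Over the fits that left out 1 library the share of all genes called moved between 13.2% and 34.1%.

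Fth1 was the 1 gene of the 89 called for AAV against WT (1.12%, against 1.29% of all genes). It had 31397, 27697, 33085 and 34865 in the libraries labelled AAV, below the lowest library labelled WT (55557), and a log2 fold change of -0.99 (SE 0.17, limma adjusted p = 0.0334). Against the libraries labelled KO it was at 0.23 (limma adjusted p = 0.222). The call against the libraries labelled WT was lost in 10 of 20 alternatives, among them that without WT 2 and AAV 4 together and those without any 1 library except WT 3, and the log2 fold change stayed between -1.05 and -0.84. Over the 89 genes the median log2 fold change was -0.16, and -0.03 over all genes tested.

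Annotated transcripts at least 90% identical over at least 50% of the shorter length were sought for the members and for the wider genes named here. For the members they were Gm47551, which shares 152 bases with Gclm and 166 with Sod2, and Gm22993, which shares 168 with Sod2, and neither is among the genes of the tables. For the wider genes, 3 such pairs had both genes in the tables, Fth1 with Gm6977 (mean 6.9 normalized counts), Sod1 with Gm8566 (6.18) and Sqstm1 with Mrnip (67.0). These levels are small beside the genes themselves. Txn1, Gpx4, Prdx1, Prdx2, Esd, Me1, Gstt3 and Slc48a1 also have such copies, none of them among the genes of the tables.

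The genes with the most similar pattern over the 12 libraries were found by Pearson's r of log2(normalized count + 1) among 9743 genes with a mean of at least 100. Nearest to Srxn1 were Dusp5 (0.98), Iqsec2 (0.97) and Rrad (0.97), and nearest to Gclm were Cand2 (0.97), Myl1 (0.97) and AI464131 (0.97). Those of Gclc were Ehmt1 (0.97), Cep250 (0.95) and Mllt10 (0.95). For Nfe2l2 the values were lower, with 0.85 for Bcar3, 0.82 for Nr4a2 and 0.79 for Tmem37. Between members, Txnrd1 and Sod2 had an r of 0.89, and WT 3 was the highest library for both. All 12 points share the same libraries and size factors, and the difference between the groups is part of each r.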

How the data were processed

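RNA from quadriceps of 12 mice was sequenced. Per the study's methods and the submitters' processing notes, the authors trimmed reads with Trim Galore 0.4.1, checked them with FastQC 0.11.2, aligned them to GRCm38 with STAR, counted uniquely mapped reads with HTSeq 0.6.1, dropped genes that reached 10 reads in no library and used DESeq2 1.16.1. The deposited signal values are counts divided by 1 size factor per library (normalized counts). They gave whole reads for 100.0% of values (tolerance 0.01) in all 12 libraries, and the KO values of the 2 tables are identical, so that all libraries are on 1 scale. The deposited columns of the authors' own comparisons (fold changes, their errors, statistics and p-values) were not used.

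The test planned for counts was edgeR; as the values are normalized, limma 3.58.1 (R 4.3.3) with a trend was used on log2(value + 1), for genes that reached a value of 10 in 1 or more of the 8 libraries, and p-values were adjusted by Benjamini-Hochberg. Intervals are 95%. A fold change on this scale understates the change of low genes. Alternatives were edgeR 4.0.16 and DESeq2 1.42.0 on the recovered reads, scaling by total reads or TMM, other filters (none, or a mean of at least 50), a pseudocount of 0.1, all 12 libraries in 1 fit, the replicate number as a block, each library left out, and, added after the data were seen, corrections for exon length and GC content. The scripts were tested on simulated data. Members and lists were chosen with earlier results of these data known. Within the wider lists, the named genes are the 4 of largest change per direction and comparison with an adjusted p under 0.05 and a mean of at least 50, besides Sod1, Sod3, Cat, Prdx1 to Prdx5, Sqstm1 and Bach1; others, such as Gss, were named after their values were seen. BLAST 2.17.0 was used to find near-identical transcripts. Each library is 1 mouse. Strand use and the STAR version are not given in the sources used here.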

Additional observations from a re-analysis of the deposited data

Results flagged for a closer look

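In 33 groups of 4 libraries (the 10 members and Gaa under each of 3 labels), 7 had a highest or lowest library whose gap to the next was above Dixon's 95% critical share of the group's range, and chance alone gives about 1 such group in 20. Gclc had 531 normalized counts in AAV 1, against 366 to 394 in the other 3 libraries labelled AAV. Nqo1 had 1039 in AAV 4, against 679 to 729 in the others. Hmox1 had 194 in KO 4, against 248 to 250.2. Gclm had 394 in WT 4, against 509 to 529. Sod2 had 8701 in WT 3, against 5194 to 5663. Gaa had 14640.2 in WT 2, against 324 to 460.3, and 9854 in AAV 4, against 499.6 to 947, and these 2 values lie near the level of the libraries labelled KO.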

How the results depend on the processing

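Of 30 results for single members, 14 kept their direction and their side of the threshold under every alternative run. Leaving out 1 library gave 1 to 4 members and 20 to 53 wider pathway genes called for the label KO against WT, 2 to 3 and 11 to 29 between AAV and KO, and 0 to 0 and 0 to 3 between AAV and WT. Of all genes, 15.9% to 48.4%, 13.2% to 34.1% and 0.121% to 2.97% were called in these fits. In 1 fit of all 12 libraries, 13 wider pathway genes were called between AAV and KO (17.7% of all genes), and 1 of the members and 4 wider pathway genes between AAV and WT (6.03%). With DESeq2, 1 of the members and 7 wider pathway genes were called between AAV and WT (6.26%). Without WT 2 and AAV 4 together, 0 wider pathway genes were. The cause was not tested.

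Values near 0 changed sign. Scaling by total reads, which moved the median of all genes to 0.21 between AAV and KO and to 0.12 between AAV and WT, gave -0.0025 for Keap1 between KO and WT, 0.019 for Hmox1, 0.070 for Txnrd1 and 0.14 for Prdx6 between AAV and KO, and 0.017 for Nfe2l2 and 0.068 for Prdx6 between AAV and WT. TMM gave 5.0e-05 for Prdx6 between AAV and KO. The exon length correction gave -0.038 for Keap1 and 0.11 for Hmox1 between KO and WT, and the GC correction -0.13 for Keap1 between AAV and KO. Prdx6 without WT 2 and AAV 4 was at 0.0081 and Gaa with edgeR at -0.34 between AAV and WT. When 1 library was left out, Keap1 went from -0.036 to 0.061 and Prdx6 from -0.14 to 0.031 between KO and WT. Between AAV and KO, Hmox1 went from -0.24 to 0.015, Txnrd1 from -0.16 to 0.011, Prdx6 from -0.14 to 0.045 and Sod2 from -0.097 to 0.14. Between AAV and WT, Sod2 went from -0.27 to 0.012 and Gaa from -0.51 to 1.79.

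Replicate numbers name different mice, and libraries with the same number did not all deviate together (correlations from -0.355 to 0.554). With the replicate number as a block, 2, 2 and 0 members and 27, 15 and 0 wider pathway genes were called in the 3 comparisons, and 20.6%, 14.6% and 0.884% of all genes.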
